A study of Mus musculus with 2 samples.

Results

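The MHC class I presentation genes described here are 9 genes chosen by symbol among the 32285 genes of the count tables: H2-K1, H2-D1, B2m, Tap1, Tap2, Tapbp, Psmb8, Psmb9 and Nlrc5. All 9 had UMIs in both libraries. They were followed across the cell classes of hindlimb muscle, with classes named from marker genes and the raw UMI counts summed over the cells of each class in each library.

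Nearly every nucleated cell displays short peptides on MHC class I molecules, so that CD8 T cells can read what the cell makes. Immunoproteasome subunits cut proteins into peptides, a transporter pumps the peptides into the endoplasmic reticulum, and a loading complex places them on a heavy chain paired with beta-2-microglobulin. The genes of this route are inducible by interferons and by inflammatory NF-kB signaling, and NLRC5 is their dedicated transactivator. Vascular endothelium is known for high class I levels, whereas resting skeletal muscle fibers are known for low levels.

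Both libraries came from hindlimb muscle of female C57Bl/6J mice aged 24 months, with no transgene or gene deletion named in the labels. The ATRA+agonist group received ATRA (all-trans retinoic acid), CD3254 (an RXR-alpha agonist) and BMS961 (an RAR-gamma agonist) together in 3 intramuscular injections, and the DMSO vehicle group received the solvent in the same way. Each library is 1 droplet-based single-cell RNA-Seq run on cells pooled from 2 mice, so that mice cannot be separated, the effect of each compound alone was not measured, and no test between the groups was possible. Intervals given below are exact 95% intervals that cover counting error only and not the difference between mice.

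The tables held 10444 barcodes with 65197625 UMIs in the ATRA+agonist library and 17394 barcodes with 109343486 UMIs in the DMSO vehicle library. The filters kept 6907 and 6953 cells, with medians of 4695 and 4847 UMIs per cell. Of the barcode sequences, 43 occurred in both libraries before filtering and 9 among the kept cells. In all, 8 cell classes had at least 100 cells in each library and were compared. Class names end in "-like" because they were rebuilt from markers. Levels are UMIs per 1000000 UMIs of a class (CPM), and a difference is the log2 ratio of the ATRA+agonist level to the DMSO vehicle level. A gene was called lower or higher when this ratio reached 0.5 in size and the gene had at least 100 UMIs over both libraries in that class. In such sums, fewer expressing cells and less RNA per cell cannot be told apart, and the spread over cells is given further on.

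All positions are those of the mouse build GRCm38. On chromosome 17 a block of 4 genes runs from Psmb9 (34181987 to 34187764, minus strand) through Tap1 (34187553 to 34197225, plus strand) and Psmb8 (34197721 to 34201454, plus strand) to Tap2 (34203527 to 34216321, plus strand). Tapbp (33915899 to 33929292, plus strand), H2-K1 (33996017 to 34000347, minus strand) and H2-D1 (35262730 to 35267499, plus strand) flank this block. B2m spans 122147686 to 122153083 on the plus strand of chromosome 2 and Nlrc5 spans 94434356 to 94527272 on the plus strand of chromosome 8.

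Sequences upstream of RefSeq start sites (GRCm38.p6) are shown because the pair of heavy chain genes and the pair Tap1 and Psmb9 have letters in common before their start sites. The table of start sites matched 7 of the 9 genes, and Tap2 and Nlrc5 had no entry. For H2-K1 the first of 2 listed windows was used. The RefSeq start sites differ from the ends of some gene models above. The sequences of H2-D1, of Psmb8 and of the pair Tap1 and Psmb9 therefore lie inside an annotated gene model. Each sequence ends at the base before the start site and reads 5′ to 3′ in the direction of the gene. Capitals mark matches to 5 motifs on either strand: an interferon-stimulated response element core (ISRE, GAAA, then any NN, then GAAA), a shorter ISRE-like form (GAA, any NN, then GAAA, which does not include the core and was searched separately), a gamma-activated site (GAS, TTCNNNGAA), an NF-kB site (GGG, any NN, then TTCCC) and the X2 box core (TGACGC).
H2-K1, chr17:34000348-34000547, minus strand: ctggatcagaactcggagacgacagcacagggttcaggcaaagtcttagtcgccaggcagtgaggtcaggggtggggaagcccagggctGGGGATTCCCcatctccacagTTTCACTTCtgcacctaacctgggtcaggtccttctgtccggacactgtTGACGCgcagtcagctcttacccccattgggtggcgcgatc
H2-D1, chr17:35262894-35263093, plus strand: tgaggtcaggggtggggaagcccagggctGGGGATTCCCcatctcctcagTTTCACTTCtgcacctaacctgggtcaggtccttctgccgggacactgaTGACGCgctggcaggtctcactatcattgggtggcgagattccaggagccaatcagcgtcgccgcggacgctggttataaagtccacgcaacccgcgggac
B2m, chr2:122147487-122147686, plus strand: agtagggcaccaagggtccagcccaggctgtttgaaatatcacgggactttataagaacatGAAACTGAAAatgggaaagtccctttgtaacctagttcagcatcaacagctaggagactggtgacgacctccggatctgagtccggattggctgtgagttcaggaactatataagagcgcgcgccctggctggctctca
Psmb8, chr17:34197995-34198194, plus strand: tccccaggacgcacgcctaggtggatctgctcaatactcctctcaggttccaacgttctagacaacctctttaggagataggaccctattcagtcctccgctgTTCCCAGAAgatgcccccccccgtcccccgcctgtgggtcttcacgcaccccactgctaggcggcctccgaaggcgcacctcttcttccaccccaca
Tap1 and Psmb9, chr17:34187331-34187555, plus strand: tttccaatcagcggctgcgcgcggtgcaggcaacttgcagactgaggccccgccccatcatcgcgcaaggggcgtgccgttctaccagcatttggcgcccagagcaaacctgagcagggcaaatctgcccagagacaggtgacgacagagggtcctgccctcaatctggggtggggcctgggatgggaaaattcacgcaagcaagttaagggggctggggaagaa

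H2-K1 and H2-D1 carried the NF-kB site, the shorter ISRE-like form and the X2 box core in the same order and spacing. Where the H2-K1 stretch was shifted by 60 bases, 127 of 140 overlapping bases (90.7%) were identical. B2m held an ISRE core 139 to 130 bases before its start, and Psmb8 held a GAS 97 to 89 bases before its start. The 225 bases between the opposed start sites of Tap1 and Psmb9 held none of the marked letters. The Tapbp window also held none of the 5 motifs, and its stretch is not shown. Over 27025 promoter windows, each 250 bases before to 50 after a start site and so longer than the stretches shown, 3.49% held the ISRE core, 7.56% the shorter ISRE-like form, 8.47% the GAS, 1.66% the NF-kB site and 7.5% the X2 box core. A match describes letters and is not a measured binding site.

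H2-K1 and H2-D1, like the H2-Q and H2-T genes, are near-identical in long stretches, so reads could have been split between them in counting and the value of each one is uncertain. In the annotation of the positions above, the Tap1 and Psmb9 gene models overlap at their starts on opposite strands, and whether reads from introns were counted is not given in the sources used here.

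In endothelial-like cells all 9 genes were lower in the ATRA+agonist library, beside 4.76% of the 9743 genes tested in that class. The median log2 ratio of the 9 genes was -0.91, against 0.08 over all genes tested. Both libraries held similar numbers of these cells, 2578 in the ATRA+agonist library and 2496 in the DMSO vehicle library, with medians of 2773 and 3175.5 UMIs. Summed over the 9 genes, the level was 5522 CPM (5469 to 5576) with ATRA+agonist and 10006 CPM (9938 to 10073) with vehicle.

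Of the heavy chains, which hold the peptide, H2-K1 had 1409 CPM (1382 to 1436) in the ATRA+agonist library and 2645 CPM (2610 to 2679) in the DMSO vehicle library, a log2 ratio of -0.91 (-0.94 to -0.87). H2-D1 had 1540 CPM (1512 to 1569) and 2421 CPM (2388 to 2455), a log2 ratio of -0.65 (-0.69 to -0.62), the smallest difference of the 9 genes. B2m, the light chain without which heavy chains do not reach the surface, had 1671 CPM (1642 to 1700) and 3035 CPM (2998 to 3072), a log2 ratio of -0.86 (-0.89 to -0.83). The intervals of the libraries did not overlap for any of these 3 genes.

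The widest gap was that of Tap1, in the transporter. Tap1, a subunit of the peptide pump, had 60.9 CPM (55.4 to 66.8) in the ATRA+agonist library and 229 CPM (219 to 239) in the DMSO vehicle library, a log2 ratio of -1.91 (-2.06 to -1.76). Tap2, its partner subunit, had 124 CPM (116 to 132) and 257 CPM (246 to 268), a log2 ratio of -1.05 (-1.16 to -0.94). The interval of Tap1 lay wholly below that of Tap2, so the subunits of the heterodimer did not differ equally between these libraries. Tapbp (tapasin), which bridges the transporter to the heavy chain, had 194 CPM (184 to 205) and 323 CPM (311 to 335), a log2 ratio of -0.73 (-0.83 to -0.64).

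Psmb8, a catalytic immunoproteasome subunit, had 298 CPM (286 to 311) in the ATRA+agonist library and 640 CPM (623 to 657) in the DMSO vehicle library, a log2 ratio of -1.10 (-1.17 to -1.03). Psmb9, another catalytic subunit, had 128 CPM (120 to 136) and 291 CPM (279 to 302), a log2 ratio of -1.18 (-1.29 to -1.08). Nlrc5, the transactivator, had 96.4 CPM (89.5 to 104) and 167 CPM (158 to 176), a log2 ratio of -0.79 (-0.92 to -0.66). Psmb9 and Tap1, which start on either side of the same stretch, differed from each other in the size of the ratio by more than their intervals.

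**Figure D1:**
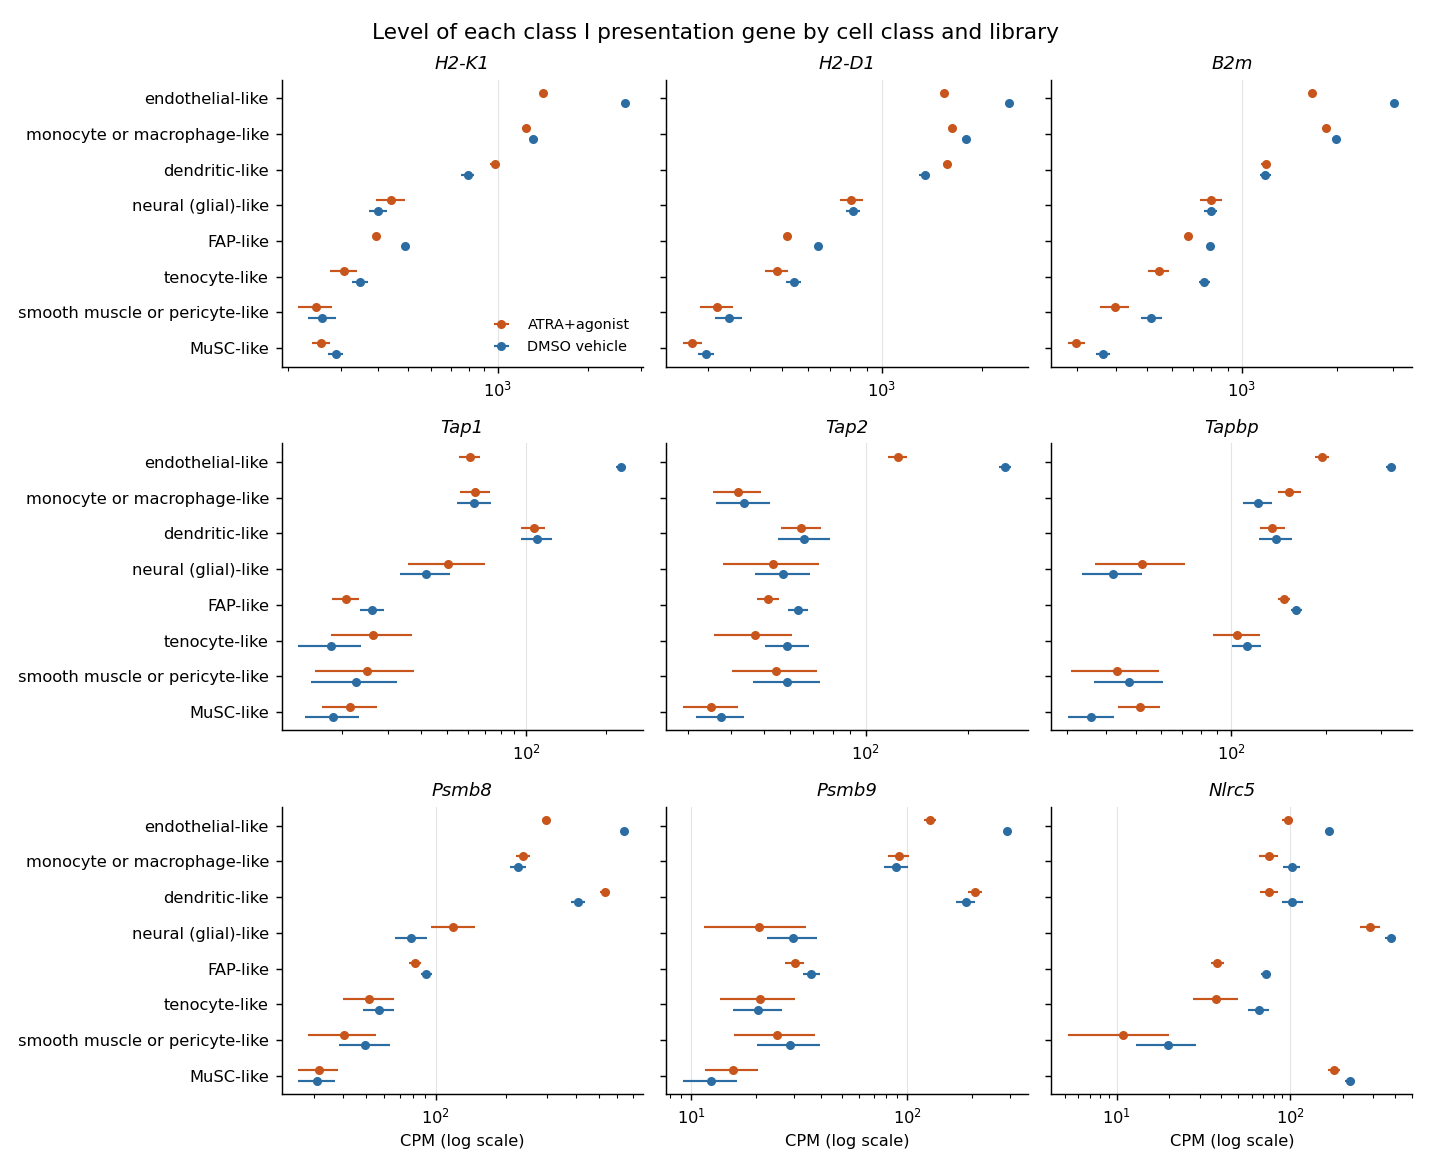
Level of each of the 9 genes in the 8 compared cell classes, in CPM on a log scale, with orange for the ATRA+agonist library, blue for the DMSO vehicle library and bars for exact 95% Poisson intervals. In endothelial-like cells the points of the libraries stand apart in all 9 panels, as for Tap1 at 60.9 and 229 CPM, while in most other classes they lie close together.

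In each of the other 7 compared classes 0 or 1 of the genes with enough UMIs passed the limit, and the map of log2 ratios shows their values. In FAP-like cells (fibro-adipogenic progenitors, the connective tissue cells of muscle) all 9 ratios were below 0 with intervals below 0, with a median of -0.29 against 0.02 over all genes tested. Only Nlrc5 passed the limit there, beside 6.05% of all genes tested in that class, with 37.9 CPM (34.7 to 41.4) in the ATRA+agonist library and 72.5 CPM (68.1 to 77.2) in the DMSO vehicle library and a log2 ratio of -0.93, and 0 passed in the other direction, beside 3.22%. For H2-K1 the FAP-like levels were 393 and 492 CPM (log2 ratio -0.32), and for B2m they were 674 and 790 CPM (log2 ratio -0.23).

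In MuSC-like cells (muscle stem cells) none of the 9 genes was lower by the limit, beside 4.61% of all genes tested, and 1 was higher, beside 6.22%. This was Tapbp, with 51.2 CPM (43.8 to 59.4) in the ATRA+agonist library and 35.9 CPM (30.2 to 42.3) in the DMSO vehicle library, a log2 ratio of 0.51 (0.18 to 0.84). It lay close to the limit, and the count of higher genes was 0 under 6 of 14 alternatives, with ratios of Tapbp from 0.43 to 0.56 where it had enough UMIs. The heavy and light chains were slightly lower, at 258 and 288 CPM for H2-K1, 269 and 295 CPM for H2-D1 and 299 and 363 CPM for B2m. B2m had the largest of these ratios at -0.28 (-0.39 to -0.16). Tap1, Tap2, Psmb8 and Psmb9 had intervals that included 0.

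In tenocyte-like cells (tendon cells) 1 of 7 genes with enough UMIs was lower, beside 9.89% of all genes tested, and 0 were higher, beside 6.18%. The lower one was Nlrc5, at 37.5 CPM (27.5 to 49.8) and 65.9 CPM (57.0 to 75.7). B2m followed with 545 and 761 CPM and a log2 ratio of -0.48 (-0.61 to -0.36). In smooth muscle or pericyte-like cells 0 of 6 genes were lower, beside 9.23%, and 0 were higher, beside 7.21%. B2m again had the lowest ratio of these 6 at -0.38 (-0.57 to -0.20), with 396 and 516 CPM.

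In neural (glial)-like cells 0 of 8 genes were lower, beside 9.07% of all genes tested, and 1 was higher, beside 6.14%. This was Psmb8, with 119 CPM (95.3 to 147) in the ATRA+agonist library and 78.5 CPM (66.7 to 91.8) in the DMSO vehicle library, a log2 ratio of 0.60 (0.21 to 0.99). The count of higher genes was 0 under 5 of 14 alternatives and 2 under 2 of them, and the ratio of Psmb8 was 0.09 without doublet removal. H2-D1 (810 and 818 CPM) and B2m (799 and 796 CPM) had overlapping intervals in these cells.

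The immune classes with enough cells held high levels of the heavy and light chains in both libraries. In monocyte or macrophage-like cells 0 of 9 genes were lower, beside 3.42% of all genes tested, and 0 were higher, beside 4.88%. Levels were 1239 and 1315 CPM for H2-K1, 1631 and 1798 CPM for H2-D1 and 1850 and 1981 CPM for B2m. Tapbp was on the other side, at 153 CPM (141 to 167) and 122 CPM (109 to 135), a log2 ratio of 0.33 (0.14 to 0.53). In dendritic-like cells 0 of 9 genes were lower, beside 4.43%, and 0 were higher, beside 6.18%. The median ratio was 0.003 against 0.008 over all genes tested. Psmb8 had 532 CPM (508 to 557) and 408 CPM (380 to 437) there, a log2 ratio of 0.38 (0.26 to 0.50), and H2-K1 had 977 and 794 CPM, a log2 ratio of 0.30 (0.21 to 0.39). The difference between classes itself was not tested, since each class was measured in 1 library per group.

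**Figure D2:**
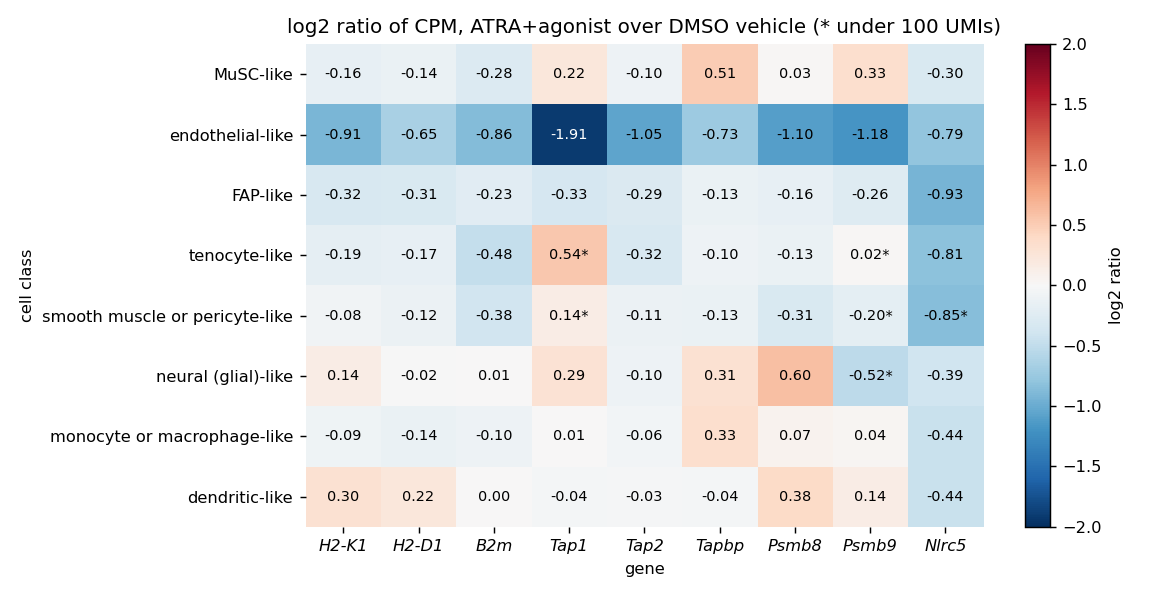
Log2 ratio of CPM, ATRA+agonist over DMSO vehicle, for the 9 genes (columns) in 8 cell classes (rows), with blue for lower and red for higher in the ATRA+agonist library and an asterisk where both libraries together held under 100 UMIs. The endothelial-like row is below 0 throughout, from -0.65 for H2-D1 to -1.91 for Tap1, and the Nlrc5 column is below 0 in all 8 classes.

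Nlrc5 departed from the other 8 genes in where it was expressed. Its level was highest in neural (glial)-like cells, at 289 CPM (251 to 330) in the ATRA+agonist library and 379 CPM (352 to 407) in the DMSO vehicle library. MuSC-like cells followed among the compared classes with 179 CPM (165 to 194) and 221 CPM (207 to 237), where most of the other genes were at or near their lowest level. Its ratio was below 0 in all 8 compared classes, and the interval lay below 0 in 7 of them, the exception being smooth muscle or pericyte-like cells with 10 and 26 UMIs. The log2 ratio was -0.93 in FAP-like, -0.81 in tenocyte-like and -0.79 in endothelial-like cells. Across 20 profiles (10 classes in each library) the level of Nlrc5 had a Pearson r of 0.25 with the mean of the other 8 genes. The same measure was 0.64 for Tapbp, 0.70 for Tap2 and between 0.91 and 0.96 for the remaining 6. The profiles share libraries and depth, so these values are a description.

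In the order of the 8 compared classes by level, endothelial-like cells stood first for 8 of the 9 genes in the DMSO vehicle library and for 3 of them (H2-K1, Tap2 and Tapbp) in the ATRA+agonist library. Some classes reached 100 cells in 1 library alone, neutrophil-like cells with vehicle and T or NK cell-like and B cell-like cells with ATRA+agonist, and with these included the endothelial-like cells stood first for 7 and 2 genes. With vehicle, H2-K1 ran from 2645 CPM in endothelial-like cells over 1484 CPM in neutrophil-like, 1315 CPM in monocyte or macrophage-like and 794 CPM in dendritic-like cells to 288 CPM in MuSC-like and 260 CPM in smooth muscle or pericyte-like cells, and only the last neighbors had overlapping intervals. With ATRA+agonist, T or NK cell-like cells led H2-K1 at 1993 CPM, and endothelial-like cells followed at 1409 CPM. Tap1 was led with ATRA+agonist by dendritic-like cells at 107 CPM, and endothelial-like cells came behind at 60.9 CPM with an interval that overlapped that of monocyte or macrophage-like cells (64.0 CPM). Endothelial-like cells gave 17.9% of all UMIs and 28.0% of the UMIs of the 9 genes in the ATRA+agonist library, and 20.8% and 47.1% in the DMSO vehicle library.

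Endothelial-like cells fell into 7 clusters, and the libraries filled them unequally. Cluster 0 (leading genes Dach1, Robo2 and Kdr) held 1281 cells with ATRA+agonist and 633 with vehicle, whereas cluster 4, led by interferon-response genes (Cd274, Gbp4 and Ido1), held 50 and 771. These sizes are given only to show what the class holds, because the genes that define cluster 4 differ between the libraries. In the DMSO vehicle library cluster 4 gave 34.8% of the endothelial-like UMIs over all genes but 42.7% (Nlrc5) to 55.7% (Tap1) of the UMIs of the 9 genes. In the ATRA+agonist library it gave 2.45% over all genes and 3.17% (H2-D1) to 5.15% (Psmb9) of the UMIs of the 9 genes.

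Without cluster 4, a step added after the values were seen, 8 of the 9 genes were still lower by the limit, beside 4.98% of the 9218 genes tested, and 0 were higher, beside 7.18%. The median log2 ratio was -0.64 against 0.07 over all genes tested. H2-D1, at 1529 CPM (1501 to 1558) and 1961 CPM (1924 to 1999), no longer reached the limit with a log2 ratio of -0.36. Tap1 was again the lowest, at 59.3 CPM (53.8 to 65.2) and 155 CPM (145 to 166), a log2 ratio of -1.39. B2m had 1654 and 2525 CPM and a log2 ratio of -0.61.

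Within cluster 4 itself the 50 cells of the ATRA+agonist library had lower levels than the 771 cells of the DMSO vehicle library, for example 1941 CPM (1744 to 2154) against 3590 CPM (3522 to 3659) for H2-K1 and 126 CPM (80.2 to 190) against 366 CPM (344 to 389) for Tap1. The intervals of the ratio included 0 there for Tapbp and Nlrc5. In the remaining clusters the median log2 ratio of the genes tested was -0.32 in cluster 0, -1.12 in cluster 2 (Rflnb, Unc45b), -0.58 in cluster 10 (Timp4, Gpihbp1), -0.64 in cluster 11 (Dach1, Ccdc85a), -0.93 in cluster 16 (Cytl1, Sema3g) and -1.64 in cluster 24 (Ccl21a, Lrg1). The medians over all genes tested in these clusters lay between -0.09 and 0.05. Depth differed between clusters, with a median of 823 UMIs per cell in cluster 2 and 1647.5 in cluster 11, against 3505 in cluster 0. Cluster 24, led by Ccl21a with Selp, Ackr1 and Vwf, held 45 and 89 cells and had 854 CPM (722 to 1003) against 2526 CPM (2395 to 2664) for H2-K1. Cluster 0 had 1325 CPM (1292 to 1358) against 1649 CPM (1598 to 1701) for H2-K1, and Nlrc5 did not differ there beyond counting error (96.7 and 96.1 CPM). In this cluster only 1 of the 9 genes, Tap1 at a log2 ratio of -0.93, reached the limit. The share of all genes past the limit is not given for single clusters.

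**Figure D3:**
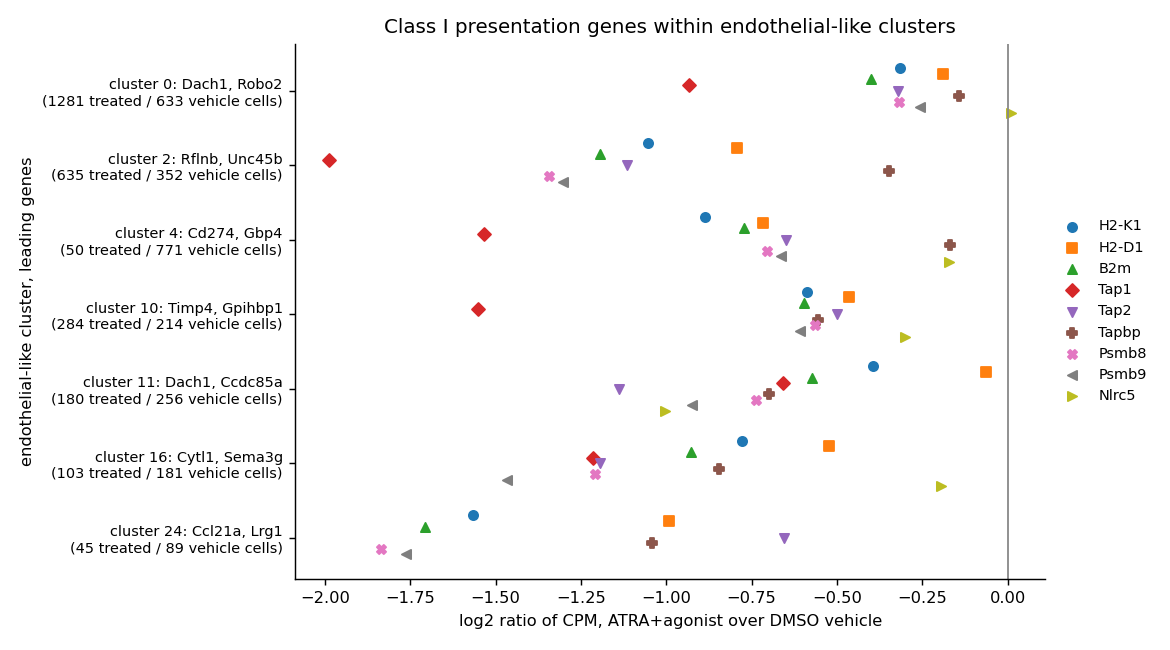
Log2 ratio of CPM, ATRA+agonist over DMSO vehicle, for each of the 9 genes (symbols) within the 7 endothelial-like clusters, named by their leading genes with the cells per library. Genes with under 10 UMIs in either library of a cluster are left out, and every point but Nlrc5 in cluster 0 (0.01) lies below 0.

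The spread over single cells differed in its middle and upper range. Each cell was thinned to 1000 UMIs so that depth was equal, which left out 524 and 261 shallower endothelial-like cells. The UMIs of the 9 genes per cell then had a median of 5 in the ATRA+agonist library and 9 in the DMSO vehicle library, a 10th percentile of 2 in both and a 90th percentile of 10 and 18. At least 10 UMIs were found in 12.1% of ATRA+agonist cells (exact Clopper-Pearson interval 10.7 to 13.6%) and in 48.2% of DMSO vehicle cells (46.1 to 50.3%). In the clusters other than cluster 4 the medians were 5 and 6 and the 90th percentiles 10 and 17. FAP-like cells had a median of 2 in both libraries, MuSC-like cells 1 in both, smooth muscle or pericyte-like cells 1 in both, neural (glial)-like cells 2 in both, monocyte or macrophage-like cells 5 in both and dendritic-like cells 4 in both, while tenocyte-like cells had 1 in the ATRA+agonist library and 2 in the DMSO vehicle library.

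**Figure D4:**
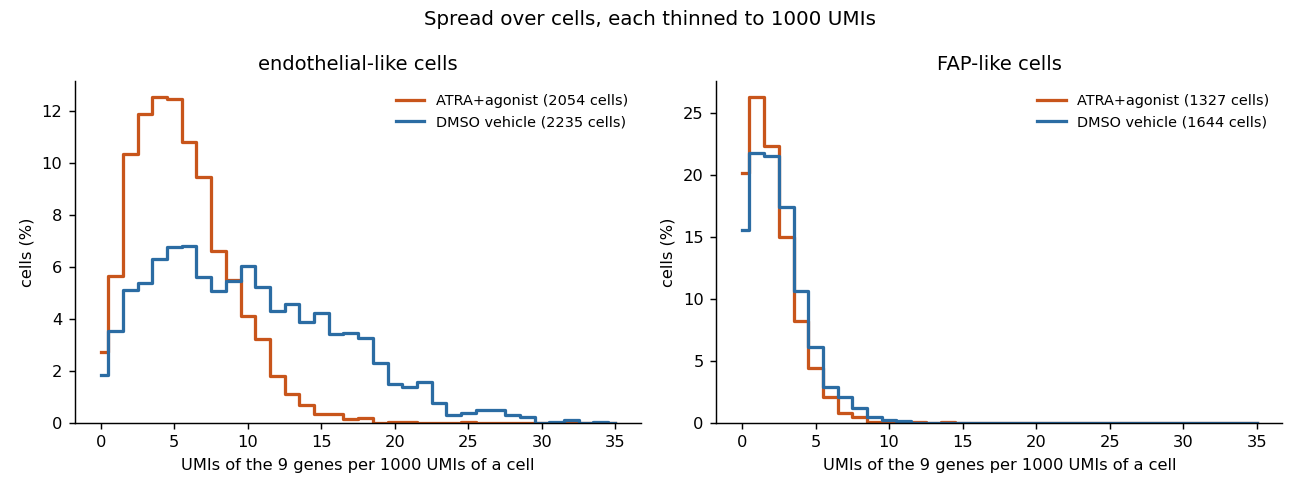
Share of cells (%) by the number of UMIs of the 9 genes in a cell thinned to 1000 UMIs, for endothelial-like cells (left) and FAP-like cells (right), with orange for ATRA+agonist and blue for DMSO vehicle. The endothelial-like curves part, with medians of 5 and 9. The FAP-like curves lie closer together, with a median of 2 in both but 20.1% (ATRA+agonist) and 15.6% (DMSO vehicle) of cells at 0 UMIs.

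The share of thinned endothelial-like cells with a UMI was 75.3% (ATRA+agonist) and 88.1% (DMSO vehicle) for B2m and 68.2% and 81.5% for H2-K1. The gap was wider in proportion for Tap1, at 5.26% (4.33 to 6.31%) and 18.9% (17.3 to 20.6%), and for Psmb8, at 24.5% (22.6 to 26.4%) and 39.9% (37.9 to 42.0%). Unthinned, the shares were 86.3% and 95.6% for B2m and 14.2% and 41.5% for Tap1. As a measure of free RNA in the droplets, barcodes with at least 50% hemoglobin beta UMIs (1903 and 6783 barcodes, medians of 8204 and 8025 UMIs) held a B2m UMI in 6.73% and 19.5%. They held an H2-K1 UMI in 2.26% and 4.92%. Tap1 was found in 0 of 1903 such barcodes with ATRA+agonist, which allows a share of up to 0.158%, and in 0.236% with vehicle. The endothelial-like shares were above these values. However, these barcodes held a mean of only 228 and 263 UMIs not from hemoglobin, so the shares are not on a like scale. Among those UMIs, B2m had 411 and 1493 CPM, H2-K1 had 109 and 298 CPM and Tap1 had 0 and 8.98 CPM. With vehicle, this B2m value lay between the endothelial-like (3035 CPM) and FAP-like (790 CPM) levels. In these barcodes B2m, H2-K1 and Tap1 were thus also lower in the ATRA+agonist library. How much of this RNA was free, and how much came from the red cells themselves, was not measured. The part of free RNA in the difference was not tested.

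Markers of other cell types were summed in endothelial-like cells of both libraries. The highest of these sums was that of the 9 smooth muscle or pericyte markers, all detected, at 388 CPM with ATRA+agonist and 340 CPM with vehicle. The 9 T or NK cell markers summed to 2.29 CPM with ATRA+agonist and 2.25 CPM with vehicle, with Cd3e, Trac and Ncr1 at 0 in both. The 9 monocyte or macrophage markers, all detected, summed to 25.7 and 21.3 CPM, the 8 dendritic markers (6 and 4 detected, Cd209a and Ccr7 at 0 in both) to 132 and 138 CPM, and the 7 B cell markers (4 and 3 detected, Cd79b, Pax5 and Fcmr at 0 in both) to 4.30 and 2.13 CPM. The 7 neutrophil markers summed to 1.61 CPM (4 detected) and 15.4 CPM (7 detected), and the 8 markers of muscle fiber nuclei, all detected, to 126 and 59.5 CPM. The remaining lists (FAP, tenocyte, MuSC, glial, perineurial and mast cell) summed to between 0.236 CPM (mast cell, vehicle) and 49.8 CPM (perineurial, vehicle). The 9 endothelial markers summed to 10270 and 9454 CPM. The part of these differences in the class I result was not tested.

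Related genes in endothelial-like cells are shown by list, and the lists were set with earlier results of these data known. Over all genes tested in these cells, 4.76% were lower and 6.84% higher by the limit. A count of 0 in a short list therefore lies near these shares. Of the nonclassical class I chains, which present to NK cells and other unconventional lymphocytes, 7 had enough UMIs and all 7 were lower. H2-Q7 had 211 CPM with ATRA+agonist and 654 CPM with vehicle (log2 ratio -1.63), H2-T23, the Qa-1 chain read by the NK receptor of Klrd1 and Klrc1, had 197 and 514 CPM (-1.39), and H2-T24 was nearest to the limit at -0.51. The other loading factors, chaperones and trimming enzymes that also serve other proteins, had smaller ratios and 0 of 5 passed, from -0.18 for Pdia3 to -0.40 for Calr.

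Proteasome genes separated by kind. Of the other interferon-inducible subunits, Psmb10 (the remaining catalytic immunoproteasome subunit) had 147 and 236 CPM (log2 ratio -0.68) and Psme1 (an activator subunit) had 251 and 366 CPM (-0.55), while Psme2 at 204 and 283 CPM (-0.48) stayed under the limit. Of the 14 constitutive proteasome genes 0 passed in either direction, with a median log2 ratio of 0.05. The constitutive partners that Psmb8, Psmb9 and Psmb10 replace had ratios of 0.22 (Psmb5), 0.13 (Psmb6) and 0.09 (Psmb7).

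Among transcription factors of class I genes, Irf1, an interferon-induced activator of class I promoters, had 782 CPM with ATRA+agonist and 739 CPM with vehicle (log2 ratio 0.08), and Rela and Nfkb1, NF-kB subunits, had ratios of -0.06 and -0.20. Stat2 and Irf2, interferon-signaling factors, had ratios of -0.37 and -0.29 with intervals below 0, and Rfxap, a subunit of the RFX complex, had a ratio of 0.46 with an interval above 0. Among 7 interferon receptor and kinase genes 0 were lower by the limit, beside 4.76% of all genes tested, and 1 was higher, beside 6.84%. This was Ifngr2, with 121 and 89 UMIs and a log2 ratio of 0.63 (0.22 to 1.04). Jak1 at -0.33 (-0.39 to -0.26) and Jak2 at -0.28 (-0.41 to -0.15) were below 0 without reaching the limit. The intervals of Ifngr1, Ifnar1, Ifnar2 and Tyk2 included 0. Ifng was counted once in each library in these cells, Ifnb1 not at all, and Tnf had 31.7 and 37.7 CPM (-0.25). Class II genes, the separate route that shows peptides to CD4 T cells, were lower for 7 of 7, with Cd74 at 24.6 and 646 CPM (-4.71).

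**Figure D5:**
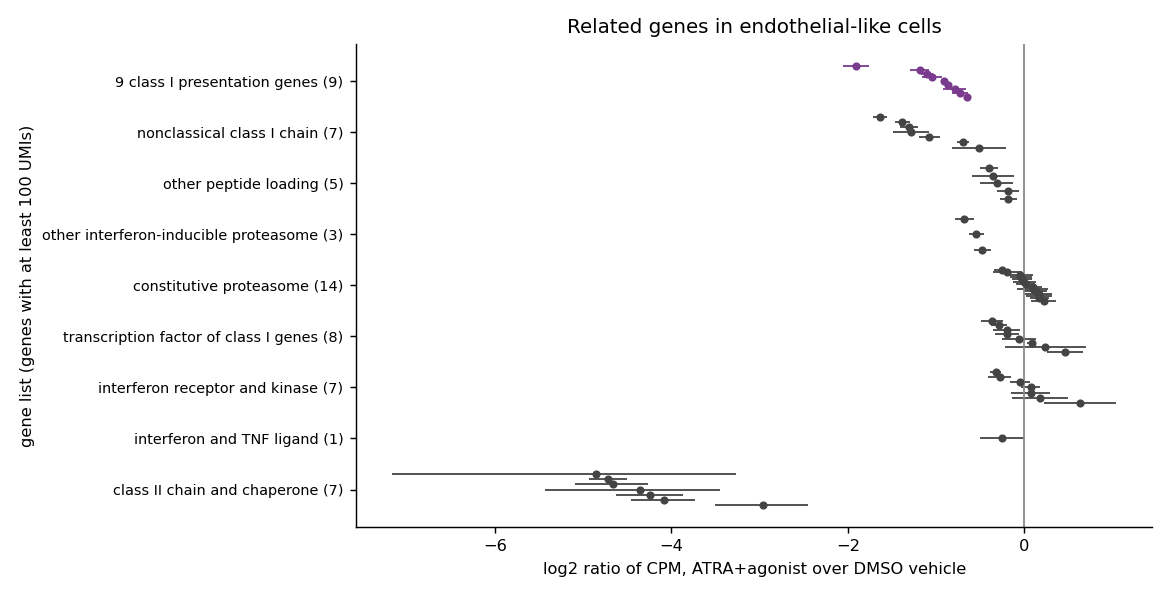
Log2 ratio of CPM, ATRA+agonist over DMSO vehicle, in endothelial-like cells for the 9 class I presentation genes (purple) and for related gene lists (gray), with exact 95% intervals and the number of genes with at least 100 UMIs in brackets. The class I chains lie left of 0, the 14 constitutive proteasome genes lie around it, and the class II genes lie farthest left.

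Among 13611 genes with enough UMIs for a profile over the 10 classes of each library, the genes whose profile was most like the mean of the 9 were H2-T23 (Pearson r = 0.96), Psmb10 (0.95), Psme1 (0.94), Psme2 (0.93) and Casp8 (0.92), over 20 profiles. The first of these are a class I chain and proteasome subunits, and Casp8 is an apoptosis protease.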

How the data were processed

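Single-cell RNA-Seq counts of 2 libraries were used. The authors deposited raw UMI counts per gene and barcode, written by Cell Ranger 7.2.0 for 3-prime 10x libraries on mouse build mm10 (GRCm38), called cells only. UMIs were counted once per molecule. RNA extraction in the labels describes bulk RNA-Seq and was not used here.

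Cells with 300 to 5000 genes, under 20% mitochondrial UMIs and under 0.25% Hbb- UMIs were kept, after the study's methods. The 7.5% with the highest artificial-doublet score were removed (pN 0.2, a rebuilt form of the study's procedure). Counts were scaled to 10000 per cell, and 2000 variable genes, without 129 class I, class II and interferon-response genes, gave 30 components and Louvain clusters at resolution 0.8 (python-igraph 0.11.9, scikit-learn 1.9.0). A cluster took the name of a class when at least 3 of its markers were enriched, and 2 clusters stayed unnamed. Thresholds for names were set with the clusters seen.

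UMIs were summed by class and library. Intervals of levels are exact Poisson, of ratios exact conditional on the summed count, and of shares exact Clopper-Pearson (SciPy 1.17.1). Intervals and limits of 0 counts (3 counts) cover counting error only. The ratio and its interval were run on simulated Poisson counts without spread between cells or mice. Since the interval assumes such counts, this checked the computation only. Classes needed 100 cells in each library, and profiles for likeness 50 cells, with log values of CPM plus 10.

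The 9 genes were given by name. Other genes were named when on a related list and past the limit of 0.5 or when factors, loading or proteasome genes of the route, and the 5 most alike by profile. Genes and lists were chosen with earlier results of these data known. One gene of the factor list is not reported here. Alternatives changed each filter, the clustering, the scaling and the limit one at a time.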

Additional observations from a re-analysis of the deposited data

Results flagged for a closer look

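Some genes were above 0 in 1 class while endothelial-like cells were below 0 for the same gene, each with an interval off 0. The differences between classes were not tested. These log2 ratios were 0.30 for H2-K1, 0.22 for H2-D1 and 0.38 for Psmb8 in dendritic-like cells, 0.51 for Tapbp in MuSC-like cells, 0.33 for Tapbp in monocyte or macrophage-like cells and 0.60 for Psmb8 in neural (glial)-like cells. The corresponding endothelial-like values were -0.91 (H2-K1), -0.65 (H2-D1), -1.10 (Psmb8) and -0.73 (Tapbp).

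B cell-like cells were outside the comparisons, with 647 cells under ATRA+agonist and 69 under vehicle. H2-D1 (log2 ratio 0.26), Psmb8 (0.33) and Nlrc5 (0.86, from 377 and 20 UMIs) were above 0 there, while B2m had 1156 and 1947 CPM. One B cell-like cluster held 83 cells under ATRA+agonist and 0 under vehicle.

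The barcodes removed by the filters that were not red cells (1634 and 3658) held H2-D1 at 870 and 802 CPM (log2 ratio 0.12) and Nlrc5 at 82.0 and 69.7 CPM (0.24). In the same barcodes Tap1 had 40.3 and 56.7 CPM and B2m 937 and 1012 CPM.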

How the results depend on the processing

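With 1 library per group, no statement here carries the spread between mice, and in tenocyte-like, smooth muscle or pericyte-like and neural (glial)-like cells some genes stayed under 100 UMIs. In endothelial-like cells 9 of 9 genes were lower under 13 alternatives, 8 of 9 without the interferon-led cluster, and 4 of 9 with a limit of 1. The median log2 ratio ranged from -0.98 to -0.64 over 15 alternatives. With a limit of 1 the count of lower genes was 0 in FAP-like and 0 in tenocyte-like cells. Thinning to 1000 UMIs gave 1 lower gene in MuSC-like, 2 in FAP-like and 0 in tenocyte-like cells, and turned H2-K1 in tenocyte-like cells to 0.0557, where thinning left 3 genes with enough UMIs. A higher minimum of genes per cell gave 2 in tenocyte-like and 1 in monocyte or macrophage-like cells. Without doublet removal 3 genes were lower in smooth muscle or pericyte-like cells, 1 in neural (glial)-like and 3 in monocyte or macrophage-like cells. A mitochondrial limit of 10% gave 1 in neural (glial)-like and 1 in monocyte or macrophage-like cells, no maximum of genes gave 1 in each of these plus 1 for the smooth muscle or pericyte-like class, and at least 20 UMIs gave 1 for that class and 1 in neural (glial)-like cells. No hemoglobin limit and assignment by each cell's own markers gave 1 each in monocyte or macrophage-like cells, and equal weight per cell gave 1 in dendritic-like cells. In monocyte or macrophage-like cells H2-K1 turned to 0.0126 at resolution 0.4, and Tapbp to -0.0324 without doublet removal and -0.0335 by own markers. At least 20 UMIs gave 1 higher gene in tenocyte-like cells. The cause was not tested. Dendritic-like cells gave no value under 4 alternatives. No paired analysis was possible because each group has 1 library.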

Other observations

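Other cell classes had too few cells in 1 library for a comparison, and their levels are given as values. T or NK cell-like cells (314 of ATRA+agonist and 97 of DMSO vehicle) had 1993 and 2457 CPM of H2-K1 and 252 and 237 CPM of Nlrc5. Neutrophil-like cells (20 and 150) had 471 and 696 CPM of Psmb8 and 145 and 167 CPM of Tap1. Cells with muscle fiber transcripts were found in the ATRA+agonist library alone, 228 in number, and had H2-K1 and B2m levels below those of every other named class of that library, with 68.6 CPM (44.8 to 100.5) of H2-K1 and 145 CPM (109 to 189) of B2m. Tap2 and Nlrc5 were at 0 UMIs in them, which allows up to 7.91 CPM.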
